A study of Mus musculus with 21 samples.

Results

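The interferon response genes described here are 36 genes chosen by symbol from a table of 24028 mouse genes. All 36 were in the table, all had counts in every tumour, and all passed the filter on low counts. The RNA came from 21 breast gland tumours of the mouse model WAP-Cre/PIK3CA-H1047R. Here the promoter of the milk protein gene Wap drives Cre recombinase, and the second allele is a mutant of the PI3K catalytic subunit, PIK3CA-H1047R. All 3 groups carried these alleles, and each held 7 tumours. The vehicle group received DMSO, and the other groups received BYL719 (alpelisib), an inhibitor of the PI3K alpha isoform. The treated tumours are labelled as relapsed or as stable, whereas the design text names the treated classes responding and stable, and the sources used here give no dose, time or age. Titles carry a code that several tumours share, within a group and, for 2 codes, between the relapse and stable groups. The 7 vehicle tumours carry 3 codes, the 7 relapse tumours 7 and the 7 stable tumours 4. What a code stands for is not labelled. Where it is a mouse, some tumours share an animal, and p-values then reflect in part the spread within animals.

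Interferons are secreted proteins that act through receptors on the cell surface. Type I interferons activate the kinases JAK1 and TYK2 and a complex containing STAT2 and IRF9 that binds the interferon-stimulated response element (ISRE), whereas interferon gamma acts through the gamma-activated sequence (GAS). The induced genes encode proteins that block viral replication, sense viral nucleic acids, raise the response further or restrain it, and chemokines such as CXCL9, CXCL10 and CXCL11 that attract T cells through the receptor CXCR3.

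Promoter windows in the RefSeq table of the GRCm38.p6 assembly, from 250 bases before to 50 bases after the annotated start, were found for 27 of the 36 genes. The ISRE core (GAAA, then any 2 bases, then GAAA), searched on both strands, was in windows of 15 of these 27 genes (55.6%). It was in windows of 3.99% of all 27025 genes, and in 3.44% of all 32851 windows of this length. The GAS motif TTCNNNGAA was in windows of 6 of the 27 genes (22.2%) and of 9.55% of all genes. The ISRE core of Bst2 overlapped its GAS match, and ISRE cores overlapped one another in Isg15, Oas1a, Bst2, Gbp3 and Socs1. The windows of Trim25 and Cxcl9 held neither set of letters, which says nothing of the factors that act on them. The upstream sequences of 5 genes are shown, 5′ to 3′ in the gene's direction and ending at the base before the start, with bases of ISRE core matches in capitals. Those of Cxcl10, Rsad2, Gbp5 and Gbp2 belong to the 4 genes with the lowest p-values among those that hold an ISRE core, and that of Isg15 was added after the search because its 3 matches overlap.
Cxcl10: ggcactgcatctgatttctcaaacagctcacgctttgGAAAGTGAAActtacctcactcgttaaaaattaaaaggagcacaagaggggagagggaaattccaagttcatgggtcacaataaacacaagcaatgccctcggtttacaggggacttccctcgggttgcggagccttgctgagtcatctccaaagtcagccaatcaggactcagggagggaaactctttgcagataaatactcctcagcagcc
Rsad2: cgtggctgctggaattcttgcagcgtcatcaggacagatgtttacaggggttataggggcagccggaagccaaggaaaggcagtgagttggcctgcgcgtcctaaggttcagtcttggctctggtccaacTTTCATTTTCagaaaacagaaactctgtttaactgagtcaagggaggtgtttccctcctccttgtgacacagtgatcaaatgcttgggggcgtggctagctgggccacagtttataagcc
Gbp5: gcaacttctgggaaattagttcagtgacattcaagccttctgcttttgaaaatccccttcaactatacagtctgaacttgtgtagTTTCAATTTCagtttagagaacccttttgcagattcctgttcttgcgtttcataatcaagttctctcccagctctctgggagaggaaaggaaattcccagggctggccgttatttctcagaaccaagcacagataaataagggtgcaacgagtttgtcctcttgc
Gbp2: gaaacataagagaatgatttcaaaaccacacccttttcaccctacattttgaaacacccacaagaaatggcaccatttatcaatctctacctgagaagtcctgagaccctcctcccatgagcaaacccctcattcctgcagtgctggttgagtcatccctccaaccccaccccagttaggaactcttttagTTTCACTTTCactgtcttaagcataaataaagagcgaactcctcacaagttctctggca
Isg15: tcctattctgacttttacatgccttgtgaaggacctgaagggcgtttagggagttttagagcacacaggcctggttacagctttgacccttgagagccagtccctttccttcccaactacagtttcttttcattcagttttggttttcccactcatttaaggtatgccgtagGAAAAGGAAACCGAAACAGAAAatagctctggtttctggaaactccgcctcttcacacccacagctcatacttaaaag
The sequences lie at chr5:92348890-92349139 (minus strand), chr12:26456453-26456702 (minus strand), chr3:142496684-142496933 (plus strand), chr3:142620413-142620662 (plus strand) and chr4:156200819-156201068 (minus strand). In Cxcl10 and Isg15 the motif reads in the direction of the gene, and in Rsad2, Gbp5 and Gbp2 it reads on the opposite strand. With the first transcribed base counted as 0, the Cxcl10 match began at base -213, that of Gbp5 at -165, that of Rsad2 at -120 and that of Gbp2 at -59. The Isg15 matches began at -78, -72 and -66, each overlapping the next.

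**Figure D1:**
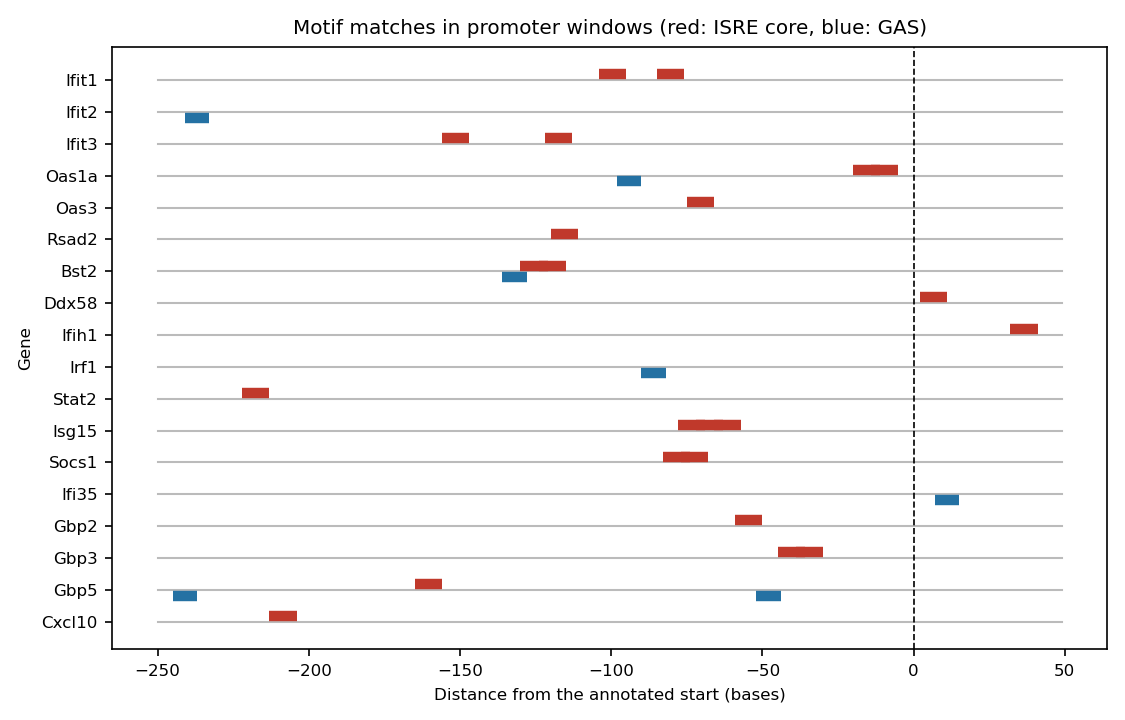
Motif matches in the promoter windows of the 18 genes with any match; the x axis is the distance from the annotated start in bases, red bars are ISRE core matches and blue bars GAS matches. Of 23 ISRE core matches, 21 lie wholly before the start; those of Ddx58 and Ifih1 lie after it.

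Total counts ranged from 13337848 to 24873844 per tumour. Levels are given as CPM (counts scaled to a common library size) with TMM-scaled totals, and a rise, a fall or a call means a Benjamini-Hochberg adjusted p under 0.05 in edgeR's quasi-likelihood test on all 21 tumours. The luminal epithelial markers of mammary tumours were present, with a summed level of 1182 to 4739 CPM over 8 genes. Tumours vehicle 2, 6 and 7 stood apart with summed smooth muscle and myoepithelial markers of 10642 to 23444 CPM, against at most 4119 CPM in any other tumour, and skeletal muscle markers were higher in the relapse group, where all 8 were called against vehicle.

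In relapse against vehicle, 1 of the 36 interferon response genes was called, and it rose: Trim25, which encodes a ubiquitin ligase that activates the RNA sensor RIG-I. Over all 15792 genes tested, 11.2% were called in this comparison, 5.42% higher and 5.8% lower. The median log2 fold change over the 36 genes was -0.02, beside a median over all genes of -0.02, and 16 of the 36 were above 0. Without vehicle 2, 6 and 7 the median was 0.33 with 31 of 36 above 0, beside 0.02 over all genes, of which 52.5% were above 0. In that fit 0 of the 36 and 3.28% of all genes were called. It leaves out vehicle 6 and 7, the highest vehicle tumours for the 36 genes. Their median deviations from each gene's own median were 0.49 and 1.15 in log2 CPM, so the vehicle levels left are lower. Without vehicle 7 alone the median log2 fold change was 0.19, with 24 of 36 above 0. With all tumours, only Trim25 of the 36 had an unadjusted p under 0.05, beside 4338 of all 15792 genes. In bulk tumour RNA, a change in the share of cells that express a gene and a change in RNA per cell cannot be told apart.

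In stable against vehicle, 4 of the 36 genes rose and 0 fell, where 15.1% of all genes were called, 6.9% higher and 8.16% lower. These 4 were Cxcl11, Cxcl9 and Cxcl10, the 3 chemokine ligands of CXCR3, and Trim25. The 3 chemokine calls rested on a single tumour, stable 1. Without it Trim25 alone of the 36 was called, where 20.6% of all genes were called. The median log2 fold change over the 36 genes was 0.12 with 25 above 0, beside a median of -0.005 over all genes. Without stable 1 the median was -0.11 with 14 of 36 above 0, beside -0.04 over all genes. Without vehicle 2, 6 and 7 it was 0.58 with 34 of 36 above 0, beside 0.05 over all genes, of which 55.3% were above 0. In that fit 0 of the 36 and 5.27% of all genes were called. It leaves out vehicle 6 and 7, the highest vehicle tumours for the 36 genes, so the vehicle levels left are lower. Without vehicle 7 alone the median was 0.48, with 31 of 36 above 0. With all tumours, an unadjusted p under 0.05 was found for 7 of the 36 and 4919 of all 15792 genes. Without stable 1 it was found for 2 of 36 and 5636 of 15914.

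In relapse against stable, 0 of the 36 genes and 0% of all genes were called by edgeR. At an unadjusted p under 0.05, 4 of the 36 and 751 of all 15792 genes passed, and the DESeq2 Wald test called 6 genes, 0 of them among the 36. The 4 were Cxcl11, Cxcl10, Cxcl9 and Rsad2, all at lower fitted levels in relapse. Without stable 1, 0 of the 36 and 787 of 15914 genes passed. The median log2 fold change over the 36 genes was -0.22, with 7 above 0, and over all genes -0.01, with 48.0% above 0. Without stable 1 these medians were 0.08, with 22 of 36 above 0, and 0.009, with 51.8% above 0. Without relapse 5 they were -0.75, with 0 of 36 above 0, and -0.01, with 48.2% above 0.

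**Figure D2:**
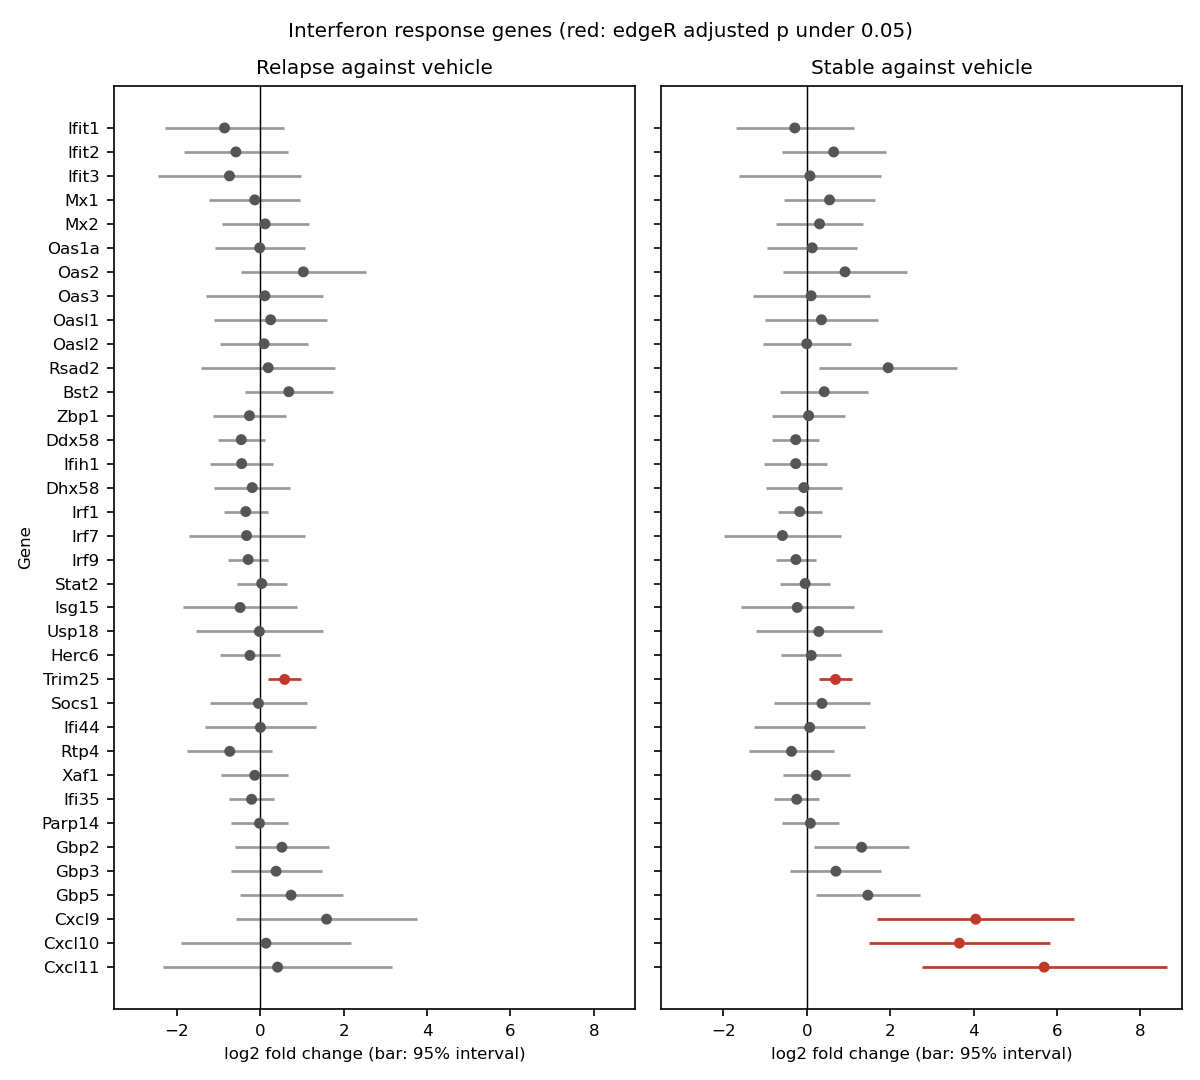
Log2 fold change (x axis) of each of the 36 genes (y axis, grouped by role) for relapse and stable against vehicle, with 95% intervals; genes called at an edgeR adjusted p under 0.05 are red. Trim25 is red on both sides, and Cxcl9, Cxcl10 and Cxcl11, at 3.66 to 5.69, are red for stable only.

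Trim25 (chromosome 11, positions 88999403 to 89020294, GRCm38.p6) was at 59.1, 100.2 and 115 CPM in the lowest, median and highest vehicle tumour. In relapse tumours the lowest, median and highest levels were 110.3, 115 and 243 CPM, and in stable tumours they were 112, 134 and 220.1 CPM. All 14 treated tumours lay above the vehicle median, and 4 of 7 relapse and 6 of 7 stable tumours lay above the highest vehicle tumour, so the groups overlapped at their edges. Trim25 rose by a log2 fold change of 0.59 ± 0.19 (SE) in relapse (edgeR adjusted p = 0.0495) and 0.69 ± 0.19 in stable tumours (edgeR adjusted p = 0.0212). These comparisons share the vehicle tumours. The relapse call was at the edge of the threshold and was lost under 6 of 7 other settings, with log2 fold changes of 0.46 to 0.60, and it held in 4 of 21 fits that each left out 1 tumour (without vehicle 4, relapse 1, relapse 2 or stable 1). The stable call was lost under 2 of 7 other settings and in the fit without stable 7. When tumours of a code were summed, neither call held (edgeR adjusted p = 0.204 in relapse and 0.141 in stable tumours). Without vehicle 2, 6 and 7, in which Trim25 was at 59.1, 77.6 and 103 CPM, the log2 fold change was 0.46 in relapse (edgeR adjusted p = 0.241) and 0.56 in stable tumours (edgeR adjusted p = 0.138), and the part of the smooth muscle signal in the result was not tested further.

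The other 4 genes of the ISG15 system and its feedback were not called in any comparison. ISG15 is a ubiquitin-like protein that is attached to other proteins, HERC6 is the mouse ligase for it, USP18 removes it and restrains receptor signalling, and SOCS1 inhibits JAK kinases. Isg15 was at 1.99 to 20.02 CPM in vehicle, 1.04 to 16.1 CPM in relapse and 1.83 to 13.8 CPM in stable tumours. Usp18 ranged from 1.61 CPM in relapse 6 to 33.9 CPM in relapse 5, both in the same group. Herc6 spanned 15.5 to 68.1 CPM over all tumours. Socs1 was the lowest of these genes, at 0.108 to 4.04 CPM, and its highest level, in stable 1, came from 93 counts. For each of these 4 genes the ranges of the 3 groups overlapped.

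The CXCR3 chemokine genes lie next to one another on chromosome 5 (GRCm38.p6), Cxcl9 at 92321331 to 92328079, Cxcl10 at 92346638 to 92348889 and Cxcl11 at 92359544 to 92363296. Cxcl11 was at 127 CPM in stable 1 and at no more than 0.955 CPM in the other 20 tumours, a 133-fold difference from the next highest. Its lowest, median and highest levels were 0.0457, 0.331 and 0.799 CPM in vehicle tumours and 0.104, 0.525 and 0.733 CPM in relapse tumours, and the lowest and median stable tumours were at 0.275 and 0.374 CPM. Apart from stable 1 the 3 groups overlapped, although stable 6, at 0.955 CPM, lay above every vehicle and relapse tumour.

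Cxcl10 had the same outlying tumour. It was at 74.1 CPM in stable 1 and at most at 2.32 CPM elsewhere, in relapse 5. The vehicle tumours lay between 0.70 and 1.38 CPM with a median of 0.871, the relapse tumours between 0.259 and 2.32 CPM with a median of 0.848, and the stable tumours had a lowest level of 0.385 and a median of 1.12 CPM. The medians of the 3 groups were thus close, and the fitted difference came from the highest stable tumour.

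Cxcl9 varied more among the other tumours. Stable 1 was at 199.8 CPM, and relapse 7, at 22.7 CPM, stable 6, at 14.7 CPM, and stable 5, at 10.8 CPM, came next. The vehicle tumours were at 0.687, 1.14 and 4.69 CPM (lowest, median, highest), the relapse tumours at 0.758, 2.94 and 22.7 CPM, and the lowest and median stable tumours at 1.72 and 2.42 CPM. In all, 3 relapse and 3 stable tumours lay above every vehicle tumour, and the groups overlapped.

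In stable against vehicle the log2 fold change was 5.69 ± 1.41 (SE) for Cxcl11 (edgeR adjusted p = 0.0129), 4.05 ± 1.13 for Cxcl9 (adjusted p = 0.0229) and 3.66 ± 1.04 for Cxcl10 (adjusted p = 0.0247), each fitted on 7 tumours a group by edgeR. Without stable 1, edgeR gave 0.36 for Cxcl11 (adjusted p = 0.614), 1.49 for Cxcl9 (adjusted p = 0.172) and 0.21 for Cxcl10 (adjusted p = 0.762). In relapse against vehicle Cxcl9 had a log2 fold change of 1.59 ± 1.05 (edgeR adjusted p = 0.341), and without relapse 7 it was 0.70 (edgeR adjusted p = 0.719). In relapse against stable the values were -5.28 for Cxcl11, -3.52 for Cxcl10 and -2.46 for Cxcl9, and without stable 1 they were 0.05, -0.07 and 0.10. Cxcr3, their receptor, was at 0.0549 to 1.45 CPM over all tumours and at 0.478 CPM in stable 1, the median of its group, and was not called.

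**Figure D3:**
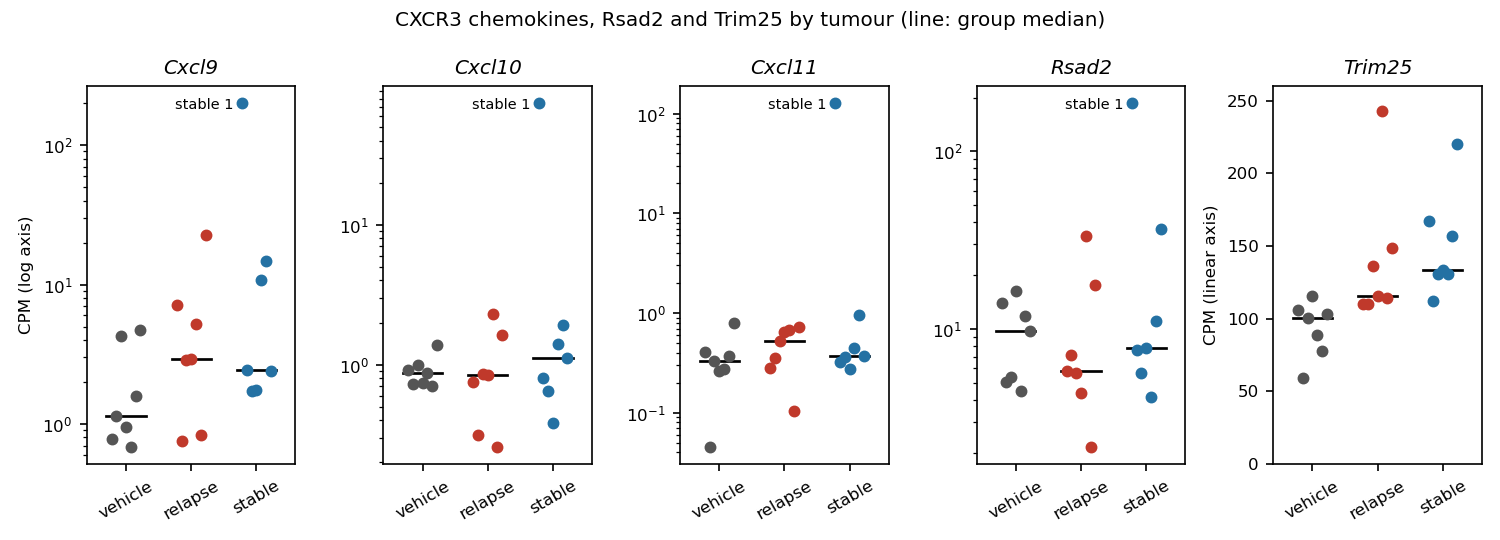
Level in CPM (y axis; log axis for the first 4 genes, linear for Trim25) of each tumour by group, with a line at the group median. Stable 1 is far above all other tumours for Cxcl9, Cxcl10, Cxcl11 and Rsad2, while the treated tumours as a group sit toward higher Trim25.

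The guanylate-binding proteins are large GTPases, strongly induced by interferon gamma, that attack intracellular microbes and their vacuoles. Gbp2 was at 29.4, 50.3 and 72.8 CPM in vehicle, at 31.6, 55.4 and 169 CPM in relapse and at 33.2, 88.0 and 508 CPM in stable tumours (lowest, median, highest). Gbp5 levels were 2.96, 3.57 and 12.9 CPM in vehicle, 4.41, 9.07 and 21.4 CPM in relapse and at 3.44, 6.97 and 67.7 CPM in stable tumours. For both genes stable 1 was the highest tumour and relapse 7 the next, and the groups overlapped. In stable against vehicle the log2 fold changes of 1.32 ± 0.55 for Gbp2 (edgeR adjusted p = 0.109) and 1.47 ± 0.60 for Gbp5 (edgeR adjusted p = 0.102) did not pass, although their unadjusted p-values were 0.0264 and 0.0238. Gbp3, at 11.2 to 132 CPM over all tumours, had log2 fold changes of 0.38 in relapse and 0.70 in stable tumours. Without stable 1 the stable values of the 3 genes were 0.17 to 0.43.

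The 12 antiviral effectors include the IFIT proteins, which bind viral RNA, the dynamin-like MX proteins, the OAS enzymes, which make short oligoadenylates on sensing double-stranded RNA, RSAD2 (viperin), which makes a chain-terminating nucleotide, and BST2 (tetherin), which holds budding virus on the cell. None of the 12 was called in relapse or in stable tumours against vehicle. Their median log2 fold change was 0.10 in relapse and 0.33 in stable tumours, with 7 and 11 of 12 above 0. Without stable 1 the stable median was -0.08, with 5 of 12 above 0. Without vehicle 2, 6 and 7 all 12 were above 0 in both comparisons, with medians of 0.39 and 0.62. In that fit 0 of the 12 were called, where 3.28% of all genes were called in relapse and 5.27% in stable tumours. It leaves out vehicle 7, the highest vehicle tumour for the effectors, with a median of 1.46 log2 CPM above their gene medians.

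Rsad2 had the lowest p among the effectors. Its level was 4.49, 9.80 and 16.2 CPM in the lowest, median and highest vehicle tumour, at 2.18, 5.78 and 33.5 CPM in relapse and at 4.14, 7.86 and 186 CPM in stable tumours. Stable 1 was 5.13-fold above the next tumour, stable 7 at 36.2 CPM, and both treated medians lay below the vehicle median. The log2 fold change in stable against vehicle was 1.95 ± 0.80 (edgeR adjusted p = 0.100), and without stable 1 it was 0.35 (edgeR adjusted p = 0.706). The DESeq2 Wald test, fitted with stable 1, called Rsad2 in this comparison (2.01, adjusted p = 0.033).

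The effectors did not all peak in the same tumours. Ifit2 was at 187 CPM in stable 1 and next at 49.1 CPM in vehicle 2, a tumour that was the lowest of all 21 for Oas1a, Oas2 and Oas3. Oas2 was at 146 CPM in relapse 5, 94.1 CPM in stable 7 and 2.97 CPM in vehicle 2, and stable 1, at 28.9 CPM, was not among its 4 highest tumours. Ifit1 was highest in vehicle 7, at 71.3 CPM, followed by stable 1 at 63.8 CPM and relapse 5 at 50.1 CPM. Bst2 and Oasl2 were highest in relapse 5, at 43.2 and 117 CPM. Oasl1 was nearly level between stable 1 and relapse 5, at 14.6 and 13.3 CPM. Mx1 was highest in stable 1, at 38.1 CPM, and Mx2 in relapse 5, at 30.5 CPM. Ifit3 ranged from 1.87 to 78.4 CPM. The genes of these families are similar in sequence, and how reads that match several genes were counted is not given, so levels of single family members are uncertain to that extent.

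The sensors are the cytoplasmic RNA helicases Ddx58 (RIG-I), Ifih1 (MDA5) and Dhx58 (LGP2), and Zbp1, a sensor of Z-form nucleic acids. All 4 fitted values were below 0 in relapse against vehicle and 3 of 4 in stable against vehicle, and none was called. Ddx58 was at 78.9, 141 and 226 CPM in vehicle, at 66.9, 74.0 and 189 CPM in relapse and at 82.5, 98.5 and 187 CPM in stable tumours (lowest, median, highest). Of its 7 relapse tumours, 4 lay below every vehicle tumour, while relapse 4, at 80.2 CPM, relapse 5 and relapse 7 were within the vehicle range. The log2 fold change of Ddx58 in relapse was -0.45 ± 0.27 (edgeR adjusted p = 0.289). Without relapse 5 it was -0.68 (edgeR adjusted p = 0.0931).

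The transcription factors of the response were also not called. Irf7, which raises type I interferon production, had the widest spread of the 4, from 7.57 CPM in relapse 6 to 147 CPM in vehicle 7, with relapse 5 at 133 CPM. Irf1, Irf9 and Stat2 varied less, at 26.1 to 91.5, 37.0 to 112 and 19.7 to 78.0 CPM. Irf9 had the narrowest range of all 36 genes, 1.59 on the log2 scale, whereas Cxcl11 had the widest, 9.78. Stable 1 was the highest tumour for Irf1, at 91.5 CPM, and the lowest for Irf9, at 37.0 CPM.

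The remaining members were Ifi44, Rtp4, Xaf1, Ifi35 and Parp14, of which Xaf1 promotes apoptosis and Parp14 is an ADP-ribosyltransferase. None was called, and their log2 fold changes ran from -0.73 to 0.01 in relapse and from -0.36 to 0.23 in stable tumours against vehicle. Rtp4 had the lowest value in both. Its lowest, median and highest levels were 15.6, 29.7 and 68.0 CPM in vehicle, 7.00, 10.9 and 55.5 CPM in relapse and 10.004, 17.9 and 51.8 CPM in stable tumours. Of 7 relapse tumours, 5 were below every vehicle tumour, whereas relapse 5 and relapse 7 were not, and the log2 fold change of -0.73 ± 0.49 did not pass (edgeR adjusted p = 0.354).

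**Figure D4:**
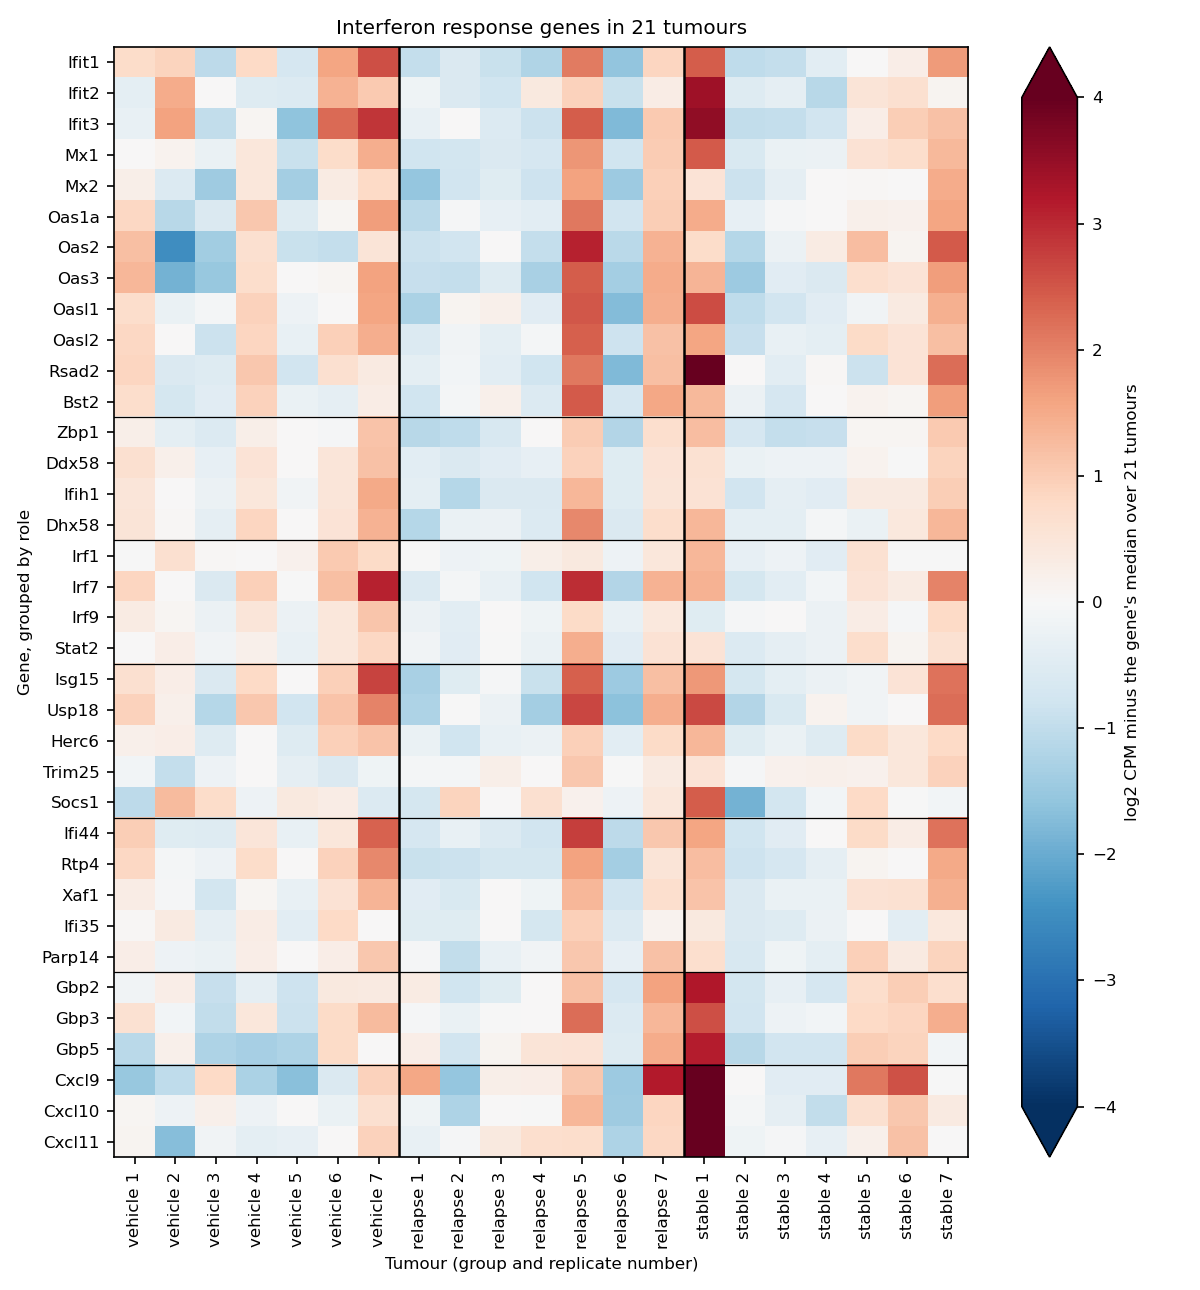
Log2 CPM of each gene (rows, by role) in each tumour (columns, by group) minus the gene's median over 21 tumours; color limits are at -4 and 4. High columns occur in every group (vehicle 7, relapse 5, relapse 7, stable 1 and stable 7), and the chemokines stand out in stable 1.

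The tumours with the highest levels were spread over all 3 groups. The median deviation over the 36 genes, in log2 CPM from each gene's own median, was 1.53 in relapse 5, 1.44 in stable 1, 1.197 in stable 7, 1.15 in vehicle 7 and 0.96 in relapse 7. These 5 tumours, named after their values were seen, held 141 of the 180 places among the 5 highest tumours of each gene. Stable 1 was the highest tumour for 15 genes, relapse 5 for 12, vehicle 7 for 7, and relapse 7 and stable 7 for 1 each. The lowest median deviations were -0.81 in relapse 6, which was the lowest tumour for 12 genes, and -0.65 in stable 2.

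The high tumours differed in which genes were highest. In relapse 5 the effectors were 2.25 above their medians on the log2 scale, the guanylate-binding proteins 1.16 and the chemokines 1.08 (medians over each role). In stable 1 the effectors were 2.01, the guanylate-binding proteins 3.14 and the chemokines 6.31 above. In vehicle 7 the values were 1.46, 0.35 and 0.93, and in stable 7 they were 1.53, 0.67 and 0.002. Relapse 7 had 1.10 for the effectors, 1.49 for the guanylate-binding proteins and 0.86 for the chemokines.

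Tumours with the same title code lay close together for some codes and far apart for others. Stable 2, 3 and 4 share a code, and their median deviations were all low, at -0.65, -0.37 and -0.26. Stable 7 and relapse 6 share a code, and all 36 genes were higher in stable 7, with a median ratio of 4.25 and the highest ratio, 16.6, for Rsad2. Relapse 5 and stable 5 share another, and 32 of 36 genes were higher in relapse 5, with a median ratio of 2.14. The direction between relapse and stable was thus opposite in the pairs that span both groups. Within single groups, stable 1 exceeded stable 6 for 35 of 36 genes (median ratio 2.36), and vehicle 7 exceeded vehicle 5 for 35 of 36 (median ratio 3.06). Vehicle 7 and 5 are the extremes of a code that vehicle 6 also carries, with median deviations of 1.15, -0.31 and 0.49. Vehicle 1 and 2 share a code (0.31 and 0), as do vehicle 3 and 4 (-0.49 and 0.45). These pairs are single tumours, and no test was made.

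**Figure D5:**
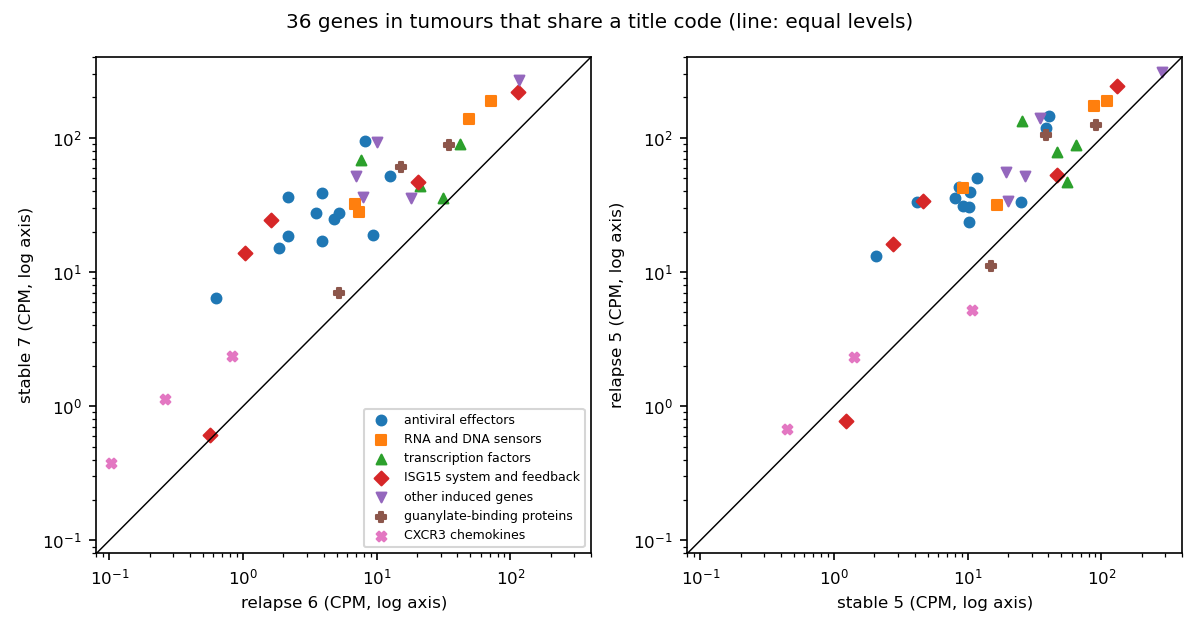
CPM of the 36 genes (points, marked by role; both axes log) in the tumours that share a title code between groups, with a line of equal levels. All points lie above the line for stable 7 against relapse 6, and 32 of 36 for relapse 5 against stable 5.

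Transcripts of the interferons themselves were near the limit of detection. Of 21 interferon ligand genes listed, 0 passed the filter, 7 had 0 counts in every tumour, and all 21 together had 221 counts over all tumours, of which 127 were of Ifnk, a type I interferon of the skin. Ifng had counts in 8 of 21 tumours and never more than 3, and Ifnb1 in 5 tumours and never more than 3. Stable 1 had 0 counts of Ifng, which allows up to 0.130 CPM (3 counts, counting error only). Ifnk, with counts in 20 of 21 tumours, was at 0, 0.0467 and 0.229 CPM in the lowest, median and highest vehicle tumour (0 to 5 counts), at 0.282, 0.429 and 0.648 CPM in relapse (6 to 13 counts) and at 0.130, 0.327 and 0.553 CPM in stable tumours (3 to 11 counts). Every relapse tumour lay above every vehicle tumour for Ifnk, and the stable range overlapped both. The share of all genes that separate in this way was not counted. These counts are too low for the filter, so the ligands were not tested.

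Of 16 receptor and JAK-STAT genes, 0 rose and 1 fell in relapse, and 1 rose and 1 fell in stable tumours against vehicle. Ptpn1, a phosphatase that acts on JAK kinases, fell in both, with log2 fold changes of -0.31 ± 0.09 in relapse (edgeR adjusted p = 0.0326) and -0.38 ± 0.09 in stable tumours (edgeR adjusted p = 0.0114). The relapse call of Ptpn1 was lost under 4 of 7 other settings (edgeR adjusted p up to 0.118, where tumours of a code were summed) and in fits without vehicle 3, vehicle 5, relapse 2, relapse 3, relapse 5 or relapse 6. The stable call was lost with summed counts (edgeR adjusted p = 0.0812). Its medians were 82.6 CPM in vehicle, 69.3 CPM in relapse and 65.9 CPM in stable tumours. Tyk2, a kinase of the type I receptor, rose in stable tumours (0.50 ± 0.17, edgeR adjusted p = 0.0464), from a median of 32.2 to 41.7 CPM, although stable 1 had the lowest level of all tumours, 20.6 CPM. The Tyk2 call was lost under 5 of 7 other settings, among them without vehicle 2, 6 and 7 (0.33, edgeR adjusted p = 0.303), and in 15 of 21 fits that each left out 1 tumour. The type I receptor gene Ifnar1 was also lowest in stable 1, at 52.4 CPM, against 75.7 to 118 CPM in the vehicle and relapse groups.

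Of 17 sensing pathway genes tested, 1 rose and 0 fell in relapse, and 2 rose and 3 fell in stable tumours against vehicle. Samhd1, a phosphohydrolase that lowers deoxynucleotide levels, rose in both, by 0.80 ± 0.14 in relapse (edgeR adjusted p = 0.0021) and 1.00 ± 0.14 in stable tumours (edgeR adjusted p = 0.000224). Its lowest, median and highest levels were 102, 154 and 174 CPM in vehicle, 171, 255 and 292 CPM in relapse and 247, 266 and 344 CPM in stable tumours. Every stable tumour lay above every vehicle tumour, and 1 relapse tumour lay within the vehicle range. For this separation, too, the share over all genes was not counted. In stable tumours the adaptors Mavs (-0.61 ± 0.11), Traf3 (-0.64 ± 0.13) and Ticam1 (-0.74 ± 0.18) fell, with edgeR adjusted p-values of 0.00194, 0.00357 and 0.0123. Mavs held under all 7 other settings, whereas Traf3 was lost when tumours of a code were summed (edgeR adjusted p = 0.0569) and Ticam1 with summed counts (0.0703) and without vehicle 2, 6 and 7 (-0.48, adjusted p = 0.128).

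Of 46 further interferon-induced genes tested, 0 were called in relapse against vehicle, and 2 rose and 1 fell in stable against vehicle. Ifi203 rose by 1.13 ± 0.36 (edgeR adjusted p = 0.0406) and Sp100, a nuclear body protein, by 0.91 ± 0.29 (edgeR adjusted p = 0.0403). The Ifi203 call was lost under 5 of 7 other settings and in 11 of 21 fits that left out 1 tumour, and the Sp100 call under 4 of 7 and in 8 of 21, with edgeR adjusted p-values up to 0.140 and 0.115. Ifitm3, a membrane protein that blocks viral entry, fell by 1.05 on the log2 scale (edgeR adjusted p = 0.0332), yet within the stable group it was highest in stable 1, at 160 CPM beside a group median of 54.3 CPM. The Ifitm3 call was lost under 4 of 7 other settings and in 9 of 21 fits that left out 1 tumour, and without vehicle 2, 6 and 7 the value was -0.44 (edgeR adjusted p = 0.408). Gbp4 was at 144 CPM in stable 1, at 28.3 CPM in stable 5, the next highest, and at most at 17.9 CPM in the vehicle and relapse groups. In these groups of genes the shares called are to be read against the same 11.2% and 15.1% of all genes.

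Markers of immune cells are given for stable 1 because its levels decide the chemokine calls. Stable 1 also differed from the other stable tumours over the whole table. Chi-square per degree of freedom was 273 to 414 in its pairs with them, and 18.6 to 198 in pairs among them. Pairs of vehicle tumours reached 396. Its summed level over 13 T and NK cell genes was 21.2 CPM, the eighth highest of 21, in group ranges of 11.5 to 38.4 CPM in vehicle, 6.55 to 27.1 CPM in relapse and 7.58 to 44.4 CPM in stable tumours. Among these genes, Lck was highest in stable 1, at 6.91 CPM, while Ncr1 was at 0 counts and Cd3e at 0.521 CPM. The 9 macrophage genes summed to 690 CPM in stable 1, in a range of 400 to 995 CPM over all tumours, and 8 dendritic cell genes to 44.8 CPM, in a range of 36.9 to 143 CPM. Its 6 neutrophil genes summed to 22.9 CPM, in a range of 7.14 to 397 CPM. Luminal epithelial markers summed to 4303 CPM in stable 1, behind vehicle 7 at 4739 CPM, and myoepithelial and smooth muscle markers to 229 CPM, the lowest of all tumours. The part of these cells in the levels of the interferon response genes was not tested.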

How the data were processed

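Stranded mRNA libraries were made from ground frozen tumours and sequenced as single reads of 50 nucleotides, per the labels' protocols. The submitters' processing notes name edgeR, Picard 2.9.2, STAR 2.5.2a and SAMtools 1.3.1, with the build mm10. Annotation, strand setting and the treatment of multi-gene reads are not stated there. The authors deposited counts per gene as whole numbers, not normalized. An extra leading cell in 10202 rows was skipped by reading cells from the right.

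Tumours were grouped by their titles. The members and lists were chosen with earlier results of these data known. Counts were filtered with filterByExpr, which kept 15792 genes, scaled with TMM and tested with edgeR 4.0.16 (R 4.3.3), quasi-likelihood F test, all 21 tumours, no covariates, with p-values adjusted over all genes tested. The test was checked on simulated data. Standard errors (SE) were derived as the size of the log2 fold change over the square root of the F statistic. The 95% intervals were built from them, and they are not the spread among tumours. Log2 CPM used a prior count of 2. Within each group, no tumour repeated another (chi-square per degree of freedom at least 18.6). Pairs of tumours from different groups were not checked in this way. Genes with values in full are those called and, where fewer than 4 were called in a comparison, the 4 members of lowest p; of each further list, those called, up to 4 of lowest p. Ifnar1, Gbp2, Gbp5 and genes that illustrate single tumours were chosen after their values were seen. Alternatives were DESeq2 1.42.0 (Wald test, and its size factors), no filter, a replicate block, and counts summed per title code within each group. Tumours of a code found in both treated groups stayed separate between the groups in those sums. Further alternatives were 2-group fits, and fits without single tumours or without vehicle 2, 6 and 7. Some genes of the further lists are counted but not reported here by name. A fit also without stable 1 was chosen after seeing the data. Gene positions are from RefSeq, GRCm38.p6, the assembly of mm10.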

Additional observations from a re-analysis of the deposited data

Results flagged for a closer look

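Within groups of 7 tumours, 108 tests for a single outlying tumour (36 genes in 3 groups, on log2 CPM, Dixon's ratio against 0.568) gave 6 hits, close to the 5.4 that chance gives at about 1 in 20. The 36 genes were measured in the same tumours, so the tests are not independent. The count therefore cannot tell which hits chance gave. Of the 6 hits, 3 were high values of stable 1: Cxcl11 at 127 CPM (ratio 0.822), Cxcl10 at 74.1 CPM (ratio 0.717) and Ifit2 at 187 CPM (ratio 0.611). Vehicle 7 was outlying in the vehicle group for Parp14, at 305 CPM (ratio 0.593), and Ifih1, at 196 CPM (ratio 0.582). Relapse 5 was outlying for Trim25, at 243 CPM (ratio 0.621), and this is the gene called in both treated groups; without relapse 5 its log2 fold change in relapse against vehicle was 0.40 (edgeR adjusted p = 0.120).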

How the results depend on the processing

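In relapse against vehicle the count of the 36 genes called went from 1 to 0 with DESeq2 size factors, without the filter, with the replicate block, with counts summed per title code, with only the 2 groups and without vehicle 2, 6 and 7. It was 0 to 1 with single tumours left out, and without stable 1 and vehicle 2, 6 and 7 it was 1, Gbp5 in place of Trim25. All genes called were 987 with the replicate block, 955 with summed counts, 527 without vehicle 2, 6 and 7, and 1156 to 2671 with single tumours left out. In stable against vehicle, 1 of the 36 was called with the replicate block and with only the 2 groups (Trim25 in both; Cxcl11 did not pass the filter of the latter), and 0 with summed counts, without vehicle 2, 6 and 7 and without these and stable 1. With single tumours left out it was 1 to 4, and without stable 7 Trim25 was lost (adjusted p = 0.0534). All genes called were 1251, 592, 964 and 847 with the block, summed counts, only the 2 groups and without vehicle 2, 6 and 7, and 1470 to 3272 with single tumours left out. In relapse against stable, all genes called were 6 with the DESeq2 Wald test and 0 to 4 with single tumours left out, against 0.

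The DESeq2 Wald test, which replaces counts it finds outlying, called Trim25, Rsad2 and Gbp5 in stable against vehicle, with Cxcl11 at 0.35, Cxcl9 at 1.37 and Cxcl10 at 0.18. Its values for Rsad2 (2.01) and Gbp5 (1.51) were near those of edgeR with stable 1 (1.95 and 1.47). Without stable 1 edgeR gave 0.35 and 0.43, and the DESeq2 Wald test was not run without that tumour. In relapse against stable the DESeq2 Wald test turned Cxcl11 to 0.070 and Cxcl9 to 0.21. Without stable 1 and vehicle 2, 6 and 7 these were 0.044 and 0.10. With single tumours left out, Cxcl11 was at -5.57 to 0.050 and Cxcl9 at -3.40 to 0.10 in relapse against stable, both above 0 only without stable 1, and Cxcr3 at -0.17 to 0.37 in relapse against vehicle. Leaving out vehicle 7 moved the median over the 36 genes from -0.02 to 0.19 in relapse and from 0.12 to 0.48 in stable tumours, and leaving out relapse 5 moved the relapse median to -0.46, with 6 of 36 above 0. The split of all calls changed most with the replicate block (609 higher and 378 lower in relapse) and summed counts (311 and 644). Replicate numbers do not pair the tumours: deviations of same-numbered tumours correlated at -0.26 to 0.36, and 2 of 21 pairs were best matched by their own number. Causes of these changes were not tested. Cxcl10, Cxcl11 and Socs1, with under 20 counts in many tumours, are limited by depth.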
